A study of Mus musculus with 21 samples.

Results

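Striatal tissue of mice injected with a GCas9 virus was compared with striatal tissue of mice injected with a GFP virus, across all genes. The comparison took the 4 GCas9 and the 4 GFP libraries whose titles are numbered within the second of 2 sets, which is 8 of the 21 libraries of the series, and was made within that set only. All mice of the set were wild type and had received an adeno-associated virus (AAV, a carrier of genes that does not replicate by itself) in the striatum, with tissue taken 3 weeks later. The cargo was GFP, a fluorescent protein used as a control, or GCas9, which the labels do not spell out and which is read here as the Cas9 nuclease joined to part of Geminin. The labels contradict each other on age, which is 3 months in the one and 3 weeks in the other. The promoter of each virus, the serotype, any guide RNA and the number of mice per library are not given in the sources used here. No label says that the replicates came from separate mice, so the p-values measure only the spread between these samples, which may be technical. The 4 libraries of Cas9 virus in the same set entered the fit, so that they helped to estimate the spread, and the first set of 9 libraries was not used.

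Geminin is a small protein that binds the licensing factor Cdt1 and keeps replication origins from firing more than once in a cell cycle. The anaphase-promoting complex with its activator Fzr1 marks Geminin for destruction outside S phase, G2 and early mitosis, so a protein fused to the recognised part of Geminin is short-lived in cells that do not divide. Cas9 is a bacterial protein, and the brain answers an AAV or a foreign protein through microglia, astrocytes, interferon signalling, antigen presentation and, at times, B and T cells that enter from the blood. Most neurons of the striatum are medium spiny neurons, which carry either dopamine receptor 1 or dopamine receptor 2.

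Recovered reads on genes, in units of 1 M, were 7.89 to 9.75 per GFP library and 7.81 to 11.07 per GCas9 library (exact two-sided permutation test, p = 0.2571, n = 4 each). Mitochondrial transcripts took 1.156 to 1.835% of reads in GFP and 1.032 to 2.176% in GCas9 libraries (exact permutation p = 0.7143). The tissue carried the markers of its label: the medium spiny neuron gene Ppp1r1b was at 21660 to 28193 normalized counts in GFP and 23950 to 28126 in GCas9 libraries, and Adora2a, Penk and Rgs9 were high in all 8. The first principal component of the 8 libraries carried 39.5% of the variance and did not separate the groups. Its scores were 35.4, 12.7 and 30.4 in GFP replicates 1 to 3 and 27.7 in GCas9 replicate 2, against -26.1 in GFP replicate 4 and -12.3, -18.8 and -49.0 in GCas9 replicates 1, 3 and 4. Immunoglobulin, interferon-stimulated and chemokine genes led that component.

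No gene passed the threshold. Of 15428 genes tested with limma on log2(normalized count + 1), 0 (0.0%) had an adjusted p under 0.05 in either direction, a normalized count being reads divided by the size factor of the library. At an unadjusted p under 0.05, 573 genes (3.71%) were higher and 426 (2.76%) lower in GCas9. In 386 genes (2.5%) all 4 GCas9 libraries lay above all 4 GFP libraries, and in 256 (1.66%) below. edgeR's quasi-likelihood test on the recovered reads also called 0 genes. DESeq2 on the same reads called 37 genes higher (0.24%) and 4 lower (0.026%), the latter being Fbxo42, Spata13, Ccna2 and Efnb2. On simulated counts with a set of genes changed, DESeq2 made 33 false calls, against 10 with limma and 12 with edgeR. The number of false calls depends on how many genes truly change, which is not known for the real libraries. The simulation thus cannot tell how many of the DESeq2 calls above are false. limma with only the 8 libraries called 7 genes higher (Egln1, Khdrbs3, Git1, Fam120a, Tshz1, Mark1 and Tada2b) and 0 lower. A p that misses the threshold does not show that values were equal, and the genes below are given by their values.

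**Figure D1:**
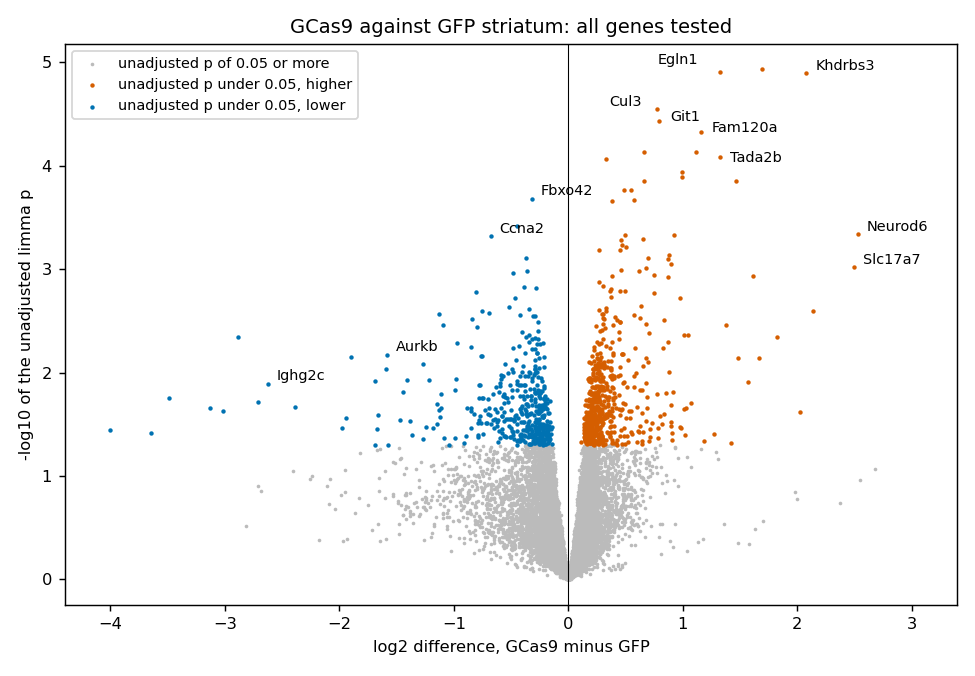
Each point is 1 of 15428 genes, with the log2 difference (GCas9 minus GFP) on the x axis and -log10 of the unadjusted limma p on the y axis; orange and blue mark genes with an unadjusted p under 0.05. Egln1, Khdrbs3 and Cul3 lie near the top right, and the immunoglobulin gene Ighg2c lies far to the left at a larger p.

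The genes of smallest p were higher in GCas9. Those named here, and those named below as lower by smallest p, were taken only from genes whose groups did not overlap. That their groups lie apart was thus fixed by the choice and is no further result. Egln1 encodes the prolyl hydroxylase PHD2, an oxygen sensor that marks hypoxia-inducible factors for destruction. Its normalized counts were 342, 410, 480 and 442 in the GFP libraries and 803, 1204, 1095 and 1105 in the GCas9 libraries. Every GCas9 library stood above every GFP library, with replicate 1 the lowest of its group on both sides. The mean was 419 ± 58.6 in GFP and 1052 ± 173 in GCas9 (SD, n = 4 each), a log2 difference of 1.32 ± 0.20 (SE), with a 95% interval of 0.89 to 1.75 and a limma adjusted p of 0.065. DESeq2 gave an adjusted p of 4.8e-08 for Egln1 and edgeR 0.08.

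Khdrbs3 encodes an RNA-binding protein of the STAR family that takes part in splicing in neurons. Its normalized counts were 70.5, 102, 112 and 106 in GFP and 240, 462, 469 and 541 in GCas9. The lowest GCas9 library was again replicate 1, and it lay above all GFP libraries. The log2 difference was 2.08 ± 0.31 (interval 1.40 to 2.76, limma adjusted p = 0.065, n = 4 each). Among the named genes of smallest p this was the largest difference, a 4.23-fold ratio on the scale with the pseudocount.

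Cul3, the scaffold of a family of ubiquitin ligases, was at 443, 575, 621 and 743 in GFP and 907, 966, 1101 and 1036 in GCas9 libraries. Git1, a scaffold protein of synapses and focal adhesions, was at 1508, 1812, 1937 and 1912 in GFP and 2916, 3034, 3319 and 3101 in GCas9. For both genes the groups did not overlap and the GFP replicate 1 was the lowest library. Their log2 differences were 0.77 ± 0.13 and 0.79 ± 0.13 (limma adjusted p = 0.11 each). Fam120a, which encodes an RNA-binding scaffold protein, was at 356, 325, 381 and 465 in GFP and 639, 888, 1045 and 863 in GCas9, a log2 difference of 1.16 ± 0.20 (limma adjusted p = 0.12).

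Tshz1, a zinc finger transcription factor of striatal and olfactory neurons, was at 163, 150, 172 and 171 in GFP and 319, 397, 416 and 308 in GCas9 libraries, a log2 difference of 1.12 ± 0.20 (limma adjusted p = 0.13). The GFP libraries of Tshz1 were tightly grouped, with a mean of 164 ± 9.84 (SD, n = 4). Mark1, a kinase that acts on microtubule-associated proteins, had a log2 difference of 0.66 ± 0.12, and Tada2b, a subunit of the SAGA histone acetylation complex, one of 1.32 ± 0.24 (limma adjusted p = 0.13 each). Tada2b was at 80 to 132 in GFP and 259 to 305 in GCas9 libraries, and it overlaps Grpel1 on the opposite strand, whose reads cannot be told apart from its own where the genes overlap. A long non-coding gene model antisense to Purb, Gm11973, ranked with Egln1 and Khdrbs3 (log2 difference 1.69, limma adjusted p = 0.065). The library kit does not mark strand, so reads of Purb cannot be told apart from those of Gm11973 where the genes overlap. As a gene model with only a number it is outside the naming rule, and it was named after its values were seen.

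The Cas9 libraries of the same set lay between or beside the groups for these genes. Egln1 was at 771, 1086, 549 and 1117 in Cas9 libraries, with replicates 1 and 3 lower than replicates 2 and 4. Khdrbs3 followed that order at 181, 485, 196 and 392. Against GFP the Cas9 libraries differed by 1.02 for Egln1, 1.57 for Khdrbs3, 0.71 for Cul3, 0.51 for Git1, 0.80 for Fam120a, 0.66 for Tshz1, 0.48 for Mark1 and 1.16 for Tada2b on the log2 scale, and this contrast shares the GFP libraries with that of GCas9. The contrast that tests the difference, GCas9 minus Cas9 in the same fit, gave 0.30 ± 0.20 for Egln1 and 0.51 ± 0.31 for Khdrbs3 (limma adjusted p = 0.99 each). Over all genes that contrast called 0 with limma, edgeR or DESeq2, with 592 genes (3.84%) at an unadjusted p under 0.05. The plot of the genes of smallest p shows the 3 groups side by side.

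**Figure D2:**
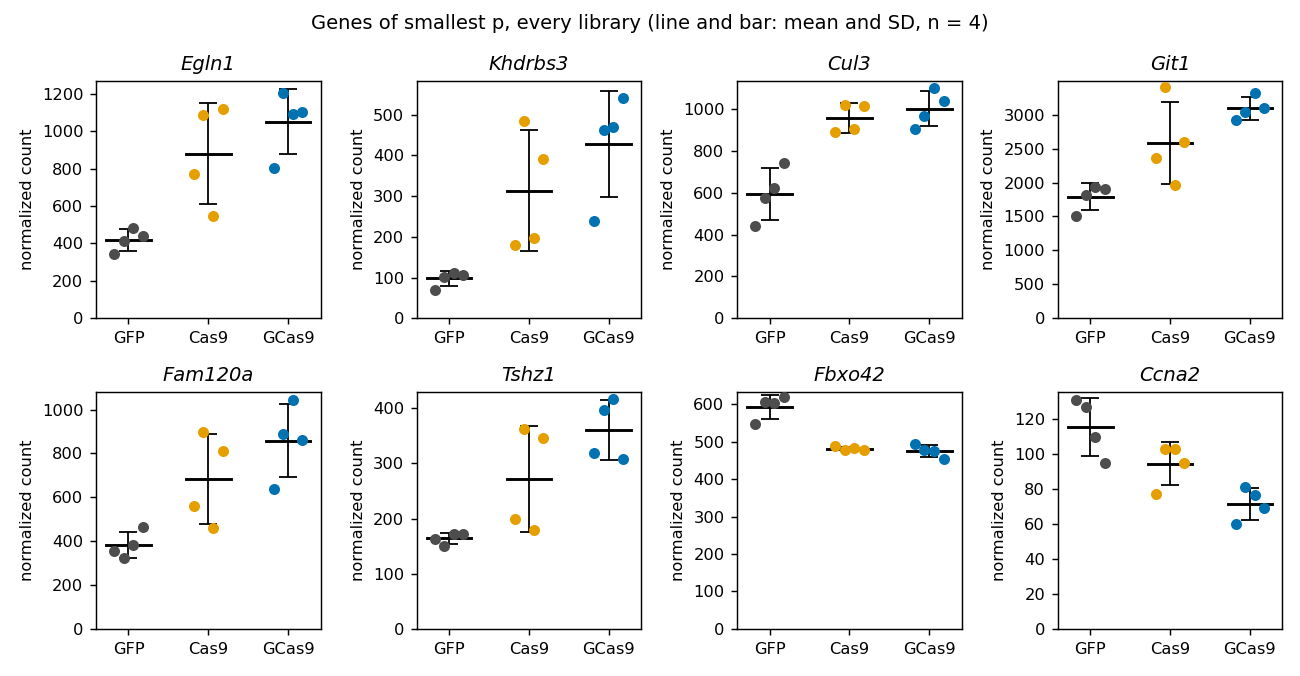
Normalized count (y axis, from 0) of 6 named genes that were higher in GCas9 and of 2 that were lower (Fbxo42, Ccna2), gene models left out, for every GFP, Cas9 and GCas9 library; the line and bar give the mean and SD of 4 libraries. GCas9 and GFP points do not overlap in any panel, because only such genes were chosen. Cas9 libraries were not held to that rule, and their points for Egln1, Khdrbs3, Fam120a and Tshz1 spread from near the GFP level to the GCas9 level.

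In GENCODE M21 coordinates (GRCm38), Egln1 lies on chromosome 8 at 124908587 to 124949324 on the minus strand and Khdrbs3 on chromosome 15 at 68928420 to 69101211 on the plus strand. Cul3 lies on chromosome 1 at 80264923 to 80340480 on the minus strand, and Git1 on chromosome 11 at 77493562 to 77507786 on the plus strand. The library kit does not mark strand, and Mark1 overlaps the gene model Gm38251 on the other strand, while Khdrbs3 and Cul3 overlap gene models on their own strand. All 8 genes named as higher are protein-coding and lie on 7 chromosomes. RefSeq promoter windows (GRCm38.p6, 250 bases before to 50 after a start) were matched by symbol for 6 of the 8. The core of the hypoxia response element, ACGTG on either strand, was searched because Egln1 is itself a target of the factors it destroys, and 3 of their 8 windows (1 each of Egln1, Cul3 and Git1) hold it, where 19.6% of all 32851 windows of that length do. The motif holds a CpG, and these windows hold 29 to 64 CpG against a median of 7 over all windows, so the shares cannot be compared as they stand. The windows of Egln1 (chromosome 8, 124949205 to 124949504, minus strand) and Cul3 (chromosome 1, 80340641 to 80340940, minus strand) are shown with the motif in capitals; a match is a description of the letters and not a binding site.
Egln1: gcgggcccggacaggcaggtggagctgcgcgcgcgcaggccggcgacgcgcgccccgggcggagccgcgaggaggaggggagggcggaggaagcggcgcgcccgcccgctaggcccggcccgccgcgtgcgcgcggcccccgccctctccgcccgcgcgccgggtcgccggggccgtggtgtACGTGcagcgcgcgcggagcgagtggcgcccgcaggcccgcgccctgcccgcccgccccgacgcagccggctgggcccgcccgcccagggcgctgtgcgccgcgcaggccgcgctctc
Cul3: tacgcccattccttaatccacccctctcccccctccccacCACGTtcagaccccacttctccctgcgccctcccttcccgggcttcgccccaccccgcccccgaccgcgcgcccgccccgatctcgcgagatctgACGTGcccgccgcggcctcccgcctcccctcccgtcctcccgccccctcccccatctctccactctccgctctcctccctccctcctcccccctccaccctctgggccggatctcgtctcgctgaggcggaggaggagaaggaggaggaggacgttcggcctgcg

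Both windows are rich in G and C, at 86.0% for Egln1 and 72.3% for Cul3. The same holds of the start of the transcripts: over the 37 genes that DESeq2 called higher, all with a GENCODE transcript, the first 300 bases of the longest transcript had a median GC of 70.0%, against 60.0% over all genes tested. It was 61.7% over the 573 genes higher and 61.3% over the 426 genes lower at an unadjusted p under 0.05. Between the top and bottom of 4 equal bins of genes by this GC, the median level of a library was offset by -0.03 to 0.013 in GFP and by -0.032 to 0.057 in GCas9 libraries on the log2 scale, and the ranges overlapped. Whether GC plays a part in these values was not tested.

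The other genes of the hypoxia pathway did not share the height of Egln1. A list of hypoxia-inducible factors, their regulators and targets had 27 tested members, Egln1 among them. Of these, 11 were higher and 16 lower in GCas9, with a median log2 difference of -0.05 against -0.003 over all genes. Arnt, the partner subunit of these factors, was at 295, 314, 270 and 310 in GFP and 265, 233, 243 and 265 in GCas9 libraries, a log2 difference of -0.24 ± 0.10 (limma adjusted p = 0.74). Car9, a carbonic anhydrase induced by hypoxia, was at 82.1, 47.9, 62.0 and 41.9 in GFP and 44.5, 44.2, 42.5 and 23.9 in GCas9 (-0.57 ± 0.25, limma adjusted p = 0.75). No member of any of the 44 lists described here passed the threshold over all genes.

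Genes of smallest p that were lower in GCas9 mostly differed by less than the named higher genes. Fbxo42, a subunit of a ubiquitin ligase that acts on p53, was at 547, 605, 602 and 619 in GFP and 494, 478, 475 and 453 in GCas9 libraries, and the 4 Cas9 libraries were at 477 to 488. By the naming rule the groups did not overlap, and the log2 difference was -0.32 ± 0.06 (limma adjusted p = 0.18). Spata13, an exchange factor for small GTPases, was at 946, 837, 1029 and 861 in GFP and 798, 689, 629 and 584 in GCas9 (-0.45 ± 0.10, limma adjusted p = 0.29). Ccna2, cyclin A2 of S phase and G2, was at 130, 126, 110 and 94.6 in GFP and 59.9, 80.8, 76.2 and 69.3 in GCas9 (-0.68 ± 0.15, interval -1.0 to -0.36, limma adjusted p = 0.31), and it overlaps Exosc9 on the opposite strand. Efnb2, the ligand ephrin-B2, Car12, a carbonic anhydrase of the cell surface, Amotl1, a junction protein of the Hippo pathway, Dbpht2 and Fem1b, a substrate receptor of a ubiquitin ligase, had log2 differences from -0.29 to -0.48 and limma adjusted p of 0.36 to 0.48.

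Geminin's own gene was at low counts in both groups. Gmnn was at 50.5, 41.9, 48.6 and 51.0 in GFP and 59.9, 50.6, 71.4 and 55 in GCas9 libraries, a log2 difference of 0.29 ± 0.17 (interval -0.08 to 0.66, limma adjusted p = 0.80). The groups overlapped by the lowest GCas9 library, and Cas9 libraries stood at 49.1 to 79.0. Whether sequence of the viral cargo adds reads to this symbol cannot be told from a count per gene. Its partner Cdt1 was at 8.2 to 34.3 in GFP and 8.0 to 21.5 in GCas9, and Fzr1, the activator that directs Geminin to destruction, at 977 to 1103 and 897 to 1082.

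The licensing genes as a list leaned to lower values: 2 of 16 tested members were higher and 14 lower, with a median log2 difference of -0.13 (-0.08 without GFP replicate 1). Mcm5 and Mcm7, subunits of the replicative helicase, were lower by -0.38 ± 0.17 and -0.23 ± 0.10, and Mcm3 by -0.65 ± 0.31 (limma adjusted p = 0.75, 0.75 and 0.77). Mcm3 was at 124, 82.9, 126 and 74.6 in GFP and 94.4, 84.0, 55.4 and 35.0 in GCas9 libraries, with the lowest value in GCas9 replicate 4. The anaphase-promoting complex genes split evenly, 9 higher and 10 lower, with a median of -0.005. Within it Cdc20, the mitotic activator, was at 34.7, 47.0, 78.2 and 30.9 in GFP and 29.2, 28, 28.1 and 13.5 in GCas9 (-0.89 ± 0.34, limma adjusted p = 0.74), while Anapc10 and Anapc5 were higher by 0.33 and 0.14.

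Most genes of S phase and mitosis had lower means in GCas9. Of 27 tested members, 26 were lower and 1 higher, 9 had an unadjusted p under 0.05 in that direction where 2.76% of all genes did, and the median log2 difference was -0.68. Aurkb, a kinase of chromosome segregation, was at 30.5, 27.4, 38.1 and 12.7 in GFP and 14.6, 6.5, 11.2 and 3.2 in GCas9 libraries (-1.58 ± 0.50, limma adjusted p = 0.72). Cenpf, a kinetochore protein, was at 25.3, 29.9, 35.3 and 12.7 in GFP and 20.7, 10.8, 8.8 and 6.4 in GCas9 (-1.11 ± 0.41, limma adjusted p = 0.73). Both genes were lowest in GFP replicate 4 within their group and in GCas9 replicate 4 over all 8, so the groups overlapped. The mean log2 level of the list was 5.79, 5.58, 6.02 and 5.17 in GFP and 5.29, 5.36, 5.00 and 4.10 in GCas9. Without GCas9 replicate 4 the median was -0.40, and without GFP replicate 3 it was -0.43. Over members with a mean of at least 50 it was -0.33. In the Cas9 libraries the list's median against GFP was -0.15.

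Neuroblast and subventricular zone genes, which mark newborn neurons beside the striatum, were lower in 12 of 15 members with a median of -0.28 (-0.13 without GCas9 replicate 4, -0.42 without GCas9 replicate 1, -0.41 without GFP replicate 4). Dcx, a microtubule protein of migrating neuroblasts, was at 146, 173, 154 and 117 in GFP and 147, 71.1, 112 and 75.7 in GCas9 libraries (-0.59 ± 0.23, limma adjusted p = 0.74). Sox11, a transcription factor of immature neurons, was at 126 to 166 in GFP and 79.6 to 120 in GCas9 (-0.48 ± 0.21, limma adjusted p = 0.75), and Tubb2b differed by -0.38 ± 0.17. Foxj1, the master regulator of motile cilia and a marker of ependymal cells that line the ventricle, was at 108, 104, 119 and 76.4 in GFP and 66.8, 94.8, 52.2 and 34.2 in GCas9 (-0.78 ± 0.27, limma adjusted p = 0.73). Members of the choroid plexus and ependymal list split, with 5 of 13 tested higher and 8 lower. Their median log2 difference was -0.05, and single members ran from -1.28 to 0.89. The summed level of that list was 3618 to 4387 in GFP and 3376 to 5006 in GCas9. Ttr, which marks choroid plexus, was at 55.3 to 146 and 89.1 to 334. The part of where the tissue was cut in these values was not tested.

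Markers of cortical excitatory neurons were higher in the GCas9 libraries. Slc17a7, the vesicular glutamate transporter of cortical neurons, was at 44.2, 74.4, 21.9 and 61.0 in GFP and 312, 280, 68.2 and 804 in GCas9 libraries. GCas9 replicate 4 stood highest and replicate 3 lay within the GFP range, so the groups overlapped by 1 library. The log2 difference was 2.5 ± 0.60 (interval 1.21 to 3.78, limma adjusted p = 0.41, DESeq2 adjusted p = 0.01). Neurod6, a transcription factor of cortical projection neurons, was at 3.2, 2.6, 4.8 and 2.7 in GFP and 23.8, 22.6, 11.2 and 48.6 in GCas9, without overlap (2.53 ± 0.55, limma adjusted p = 0.31). Nrn1, a neuritin that supports synapses, was at 3.8 to 10.9 in GFP and 14.6 to 39.0 in GCas9 (1.67 ± 0.53, limma adjusted p = 0.72).

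Over the whole cortical list, 11 of 15 genes were tested, 10 were higher and 1 lower, and 6 were higher at an unadjusted p under 0.05 where 3.71% of all genes were. Neurod6 and Nrn1 had means of 3.3 and 7.6 in GFP, 3.8 and 6.8 in Cas9, and 26.6 and 26.4 in GCas9. They reached the mean of 10 needed for testing only through the GCas9 libraries. Their direction was thus fixed by that filter, and they are included in these counts, the median and the mean level. The median log2 difference was 0.29; it was 0.54 without GCas9 replicate 2, 0.52 without GFP replicate 2, 0.47 without Cas9 replicate 1 and 0.18 over members with a mean of at least 50. The summed normalized count of all listed genes was 1417 to 1835 in GFP, 1906 to 2803 in GCas9 and 1525 to 1811 in Cas9 libraries. The mean log2 level was 5.00 to 5.54 in GFP and 5.62 to 6.67 in GCas9, without overlap, and replicate 4 was the highest. The defining marker Tbr1, a transcription factor of cortical neurons, was at 2.9 to 6.8 in GFP and 6.4 to 86.0 in GCas9 libraries. It was at 0 to 7.9 in Cas9 libraries, so only its GCas9 values could bring it to a mean of 10. Whether further members of the list passed the filter in this way was not checked. The Cas9 libraries did not share the higher values of GCas9. Slc17a7 was at 20.8 to 64.4 in Cas9, and GCas9 minus Cas9 was 2.58 ± 0.60 for Slc17a7 and 2.59 ± 0.55 for Neurod6 (limma adjusted p = 0.99 each). In bulk tissue more cells of a type and more RNA per cell cannot be told apart, and whether cortex was included in the dissected tissue was not tested.

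Immediate early genes and interneuron markers had medians near 0 (0.03 over 21 members and 0.05 over 18), with single members farther from 0. Nr4a2, an orphan nuclear receptor counted here among the immediate early genes and known from deep cortical neurons and claustrum, was at 8.4, 13.7, 14.3 and 9.1 in GFP and 53.7, 18.3, 18.5 and 162 in GCas9 libraries (1.82 ± 0.54, limma adjusted p = 0.67). Cck, a neuropeptide of cortical neurons and interneurons, was at 34.7, 45.3, 21.0 and 30.9 in GFP and 94.4, 78.6, 49.8 and 261 in GCas9 (1.61 ± 0.40, limma adjusted p = 0.41). For both genes the groups did not overlap and GCas9 replicate 4, the library highest in cortical markers, was the highest. Sst, the peptide of another interneuron class, was at 530 to 763 in GFP and 646 to 1188 in GCas9, again highest in replicate 4 (0.36 ± 0.16, limma adjusted p = 0.75). Calb2, calretinin of a further interneuron class, went the other way, at 14.3 to 33.7 in GFP and 11.2 to 20.7 in GCas9 (-0.50 ± 0.29, limma adjusted p = 0.80). Of the 18 interneuron markers 12 were higher and 6 lower, and their median changed sign with array weights and without GFP replicate 3. The part of the cortical markers in these values was not tested.

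Medium spiny neuron genes kept close to the GFP level. Drd1 (listed as Drd1a), the receptor of direct-pathway neurons, was at 4372, 4412, 4380 and 4574 in GFP and 4491, 3968, 4515 and 4950 in GCas9 libraries, a log2 difference of 0.01 ± 0.07. Drd2, the receptor of indirect-pathway neurons, was at 1626 to 1805 and 1665 to 1947 (0.03 ± 0.09), and Ppp1r1b, the dopamine signalling protein DARPP-32, differed by 0.14 ± 0.10. Penk, which encodes the enkephalin precursor of indirect-pathway neurons, was at 19444 to 25726 in GFP and 22763 to 31419 in GCas9 (0.25 ± 0.13; limma adjusted p from 0.77 to 0.98 for these 4). Of the 36 list members, 29 were higher and 7 lower, with a median of 0.08, which was 0.02 after quantile normalization and 0.04 to 0.05 without GFP replicate 1, GCas9 replicate 1 or GCas9 replicate 4. Rxrg, a retinoid receptor, and Actn2, a postsynaptic actin linker, were higher by 0.34 ± 0.12 and 0.31 ± 0.10, and Foxp2, a transcription factor, was lower by -0.18 ± 0.09 (limma adjusted p = 0.73, 0.72 and 0.77).

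Other neuronal lists lay within 0.12 of the median of all genes. Pan-neuronal genes were higher in 17 of 18 members (median 0.11, 0.07 without GCas9 replicate 4), with Rbfox3, the nuclear protein NeuN, at 1731 to 2233 in GFP and 1953 to 2246 in GCas9. Stmn3 and Uchl1 differed by 0.27 ± 0.09 and 0.25 ± 0.10 (limma adjusted p = 0.72 and 0.74). Ion channel genes had 28 of 41 members higher (median 0.09, 0.05 without GFP replicate 3 or GCas9 replicate 1); Kcnj9, a G protein-gated potassium channel subunit, was at 321, 319, 313 and 322 in GFP and 438, 378, 392 and 440 in GCas9 libraries, without overlap (0.37 ± 0.09, limma adjusted p = 0.48). Synaptic vesicle genes (16 of 27 higher), GABA genes (10 of 22), glutamate receptor and postsynaptic genes (15 of 33) and immediate early genes (12 of 21) had medians from -0.02 to 0.03.

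Interferon-stimulated genes were lower in mean in GCas9 for every one of 41 tested members, and the spread within each group was larger than the difference. The median log2 difference was -0.98. At an unadjusted p under 0.05, 0 of 41 members were lower, where 2.76% of all genes were. The mean log2 level of the list was 8.75, 8.34, 8.53 and 6.10 in GFP and 7.24, 8.41, 6.75 and 5.39 in GCas9 libraries. GFP replicates 1 to 3 and GCas9 replicate 2 were high, and GFP replicate 4 and the other GCas9 libraries low, so the groups overlapped. Irf9, a subunit of the factor that interferon activates, was at 843, 663, 927 and 219 in GFP and 330, 599, 254 and 147 in GCas9 (-0.98 ± 0.53, limma adjusted p = 0.79). Trim30a and Xaf1, both induced by interferon, differed by -1.20 ± 0.64 and -0.83 ± 0.47. Without GCas9 replicate 4 the list's median was -0.47, and without GFP replicate 4 it was -1.56. In the Cas9 libraries, which spanned 6.38 to 8.98, the median against GFP was -0.12.

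Antigen presentation followed the same libraries. Of class I genes, which show peptides from inside the cell, 20 of 21 were lower with a median of -0.84 (-0.44 without GCas9 replicate 4, -0.48 without GFP replicate 1, -1.41 without GCas9 replicate 2). B2m, the light chain of all class I molecules, was at 5488, 3059, 4547 and 1440 in GFP and 1191, 5893, 1422 and 1063 in GCas9 libraries (-0.84 ± 0.52, limma adjusted p = 0.81). H2-D1, a class I heavy chain, was at 10451, 6876, 11138 and 2624 in GFP and 3051, 12652, 2824 and 1728 in GCas9, and Nlrc5, which drives class I transcription, differed by -1.51 ± 0.79. The highest library of the 8 for B2m and H2-D1 was a GCas9 library. All 10 class II genes were lower, with a median of -0.62. It was -0.25, -0.28, -0.35 and -0.41 without GCas9 replicate 4, GFP replicate 1, GCas9 replicate 1 and GFP replicate 3, and -1.36 and -1.16 without GCas9 replicate 2 and GFP replicate 4. With all libraries, the class II median was -0.243 by edgeR and -0.245 by DESeq2. H2-Ab1, a class II chain of microglia and other presenting cells, was at 1775, 447, 1293 and 224 in GFP and 200, 2143, 315 and 131 in GCas9 (-0.92 ± 0.77, limma adjusted p = 0.85), and its regulator Ciita differed by -0.88 ± 0.58.

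Transcripts of lymphocytes were present in both groups and varied between libraries by more than the groups differed. Ighg2c, a heavy chain of antibodies, was at 6198, 3477, 3128 and 569 in GFP and 732, 2375, 151 and 99.6 in GCas9 libraries (-2.62 ± 0.92, limma adjusted p = 0.73). Igj, the joining chain of plasma cells, was at 1735, 695, 816 and 217 in GFP and 128, 1456, 148 and 78.9 in GCas9 (-1.64 ± 0.78, limma adjusted p = 0.77). Cd79a, of the B cell receptor, was at 7.3 to 48.4 and 1.6 to 34.5. Of 14 tested B and plasma cell markers 13 were lower, with a median of -1.05 that was -1.91 without GCas9 replicate 2, -0.55 without GCas9 replicate 4 and -0.58 without GCas9 replicate 1. Their summed level was 3986 to 23916 in GFP and 2495 to 36229 in GCas9. By edgeR and DESeq2 the same median was -0.41 and -0.37. T and NK cell markers had 13 of 15 lower (median -0.56). That median was -1.12 and -1.0 without GCas9 replicate 2 and GFP replicate 4, and -0.30 to -0.34 without GFP replicate 1, GFP replicate 3, GCas9 replicate 1 or GCas9 replicate 3. With all libraries, the T and NK median was -0.354 by edgeR, -0.336 by DESeq2 and -0.376 after quantile normalization. Cd8a, of cytotoxic T cells, was at 0 in 1 library of each group. Cd3e, of the T cell receptor complex, was at 36.8, 9.4, 27.6 and 5.5 in GFP and 0, 37.7, 5.6 and 8.0 in GCas9, and Ccl5, a chemokine of T and NK cells, at 157, 88.9, 162 and 10.0 in GFP and 15.4, 246, 14.4 and 10.4 in GCas9.

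The plot of list levels shows how the libraries sort. Chemokine genes had 11 of 14 lower with a median of -1.0 (-0.44 without GFP replicate 1, -0.47 without GCas9 replicate 4, -1.74 without GFP replicate 4). Cxcl13, which draws B cells, was at 436, 329, 613 and 16.4 in GFP and 72.2, 200, 99.5 and 5.6 in GCas9 libraries (-1.83 ± 1.24, limma adjusted p = 0.82), and Cxcl9, induced by interferon gamma, differed by -1.31 ± 0.81. Cxcl14 went the other way at 0.36 ± 0.18. Complement genes were lower in 14 of 15 (median -0.28). Without 1 library this was -0.11 (GCas9 replicate 4), -0.12 (GFP replicate 1), -0.15 (GCas9 replicate 1), -0.16 (GFP replicate 3), -0.47 (GFP replicate 4) or -0.59 (GCas9 replicate 2). C4b, of the classical pathway, was at 5693, 3750, 6011 and 1803 in GFP and 2345, 5618, 1766 and 648 in GCas9 (-0.98 ± 0.53, limma adjusted p = 0.79).

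**Figure D3:**
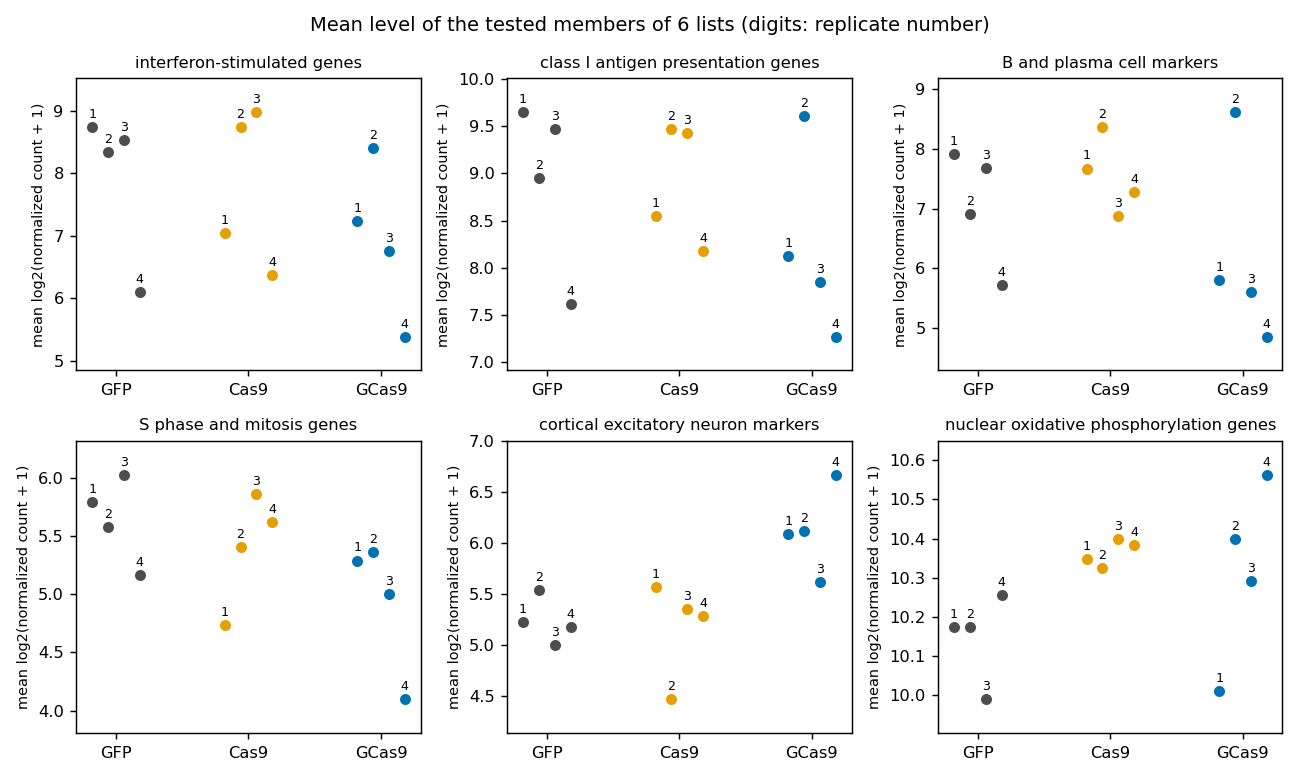
Mean log2(normalized count + 1) of the tested members of 6 gene lists (y axis) in every GFP, Cas9 and GCas9 library, with the replicate number beside each point. In the 3 immune panels GFP replicates 1 to 3 and GCas9 replicate 2 are high; in the cortical panel all 4 GCas9 points (5.62 to 6.67) lie above the GFP points (5.00 to 5.54).

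Glial cells showed the same split for reactive genes. Reactive astrocyte genes were lower in 21 of 25 members with a median of -0.33, which was -0.15 and -0.16 without GFP replicate 1 and GCas9 replicate 4, and -0.60 and -0.61 without GFP replicate 4 and GCas9 replicate 2. Gfap, the filament protein of reactive astrocytes, was at 7210, 5135, 7124 and 2903 in GFP and 2662, 9235, 5132 and 1451 in GCas9 libraries, a log2 difference of -0.52 ± 0.45 (interval -1.49 to 0.46, limma adjusted p = 0.86). Its highest and its lowest library were both GCas9. Timp1, a protease inhibitor, was at 49.5, 26.5, 41.9 and 4.5 in GFP and 4.6, 43.1, 6.4 and 2.4 in GCas9 (-1.43 ± 0.80, limma adjusted p = 0.80), and Tgm1 differed by -1.42 ± 0.76. General astrocyte markers stood on the other side, with 18 of 20 higher and a median of 0.12. Their mean log2 level overlapped, at 10.56 to 10.74 in GFP and 10.58 to 10.88 in GCas9 libraries. In the Cas9 libraries their median against GFP was 0.08. Pla2g7, a phospholipase of astrocytes, was at 986, 1283, 1072 and 999 in GFP and 1426, 1355, 1498 and 1637 in GCas9, without overlap (0.45 ± 0.10, limma adjusted p = 0.34), and Aldoc and Acsbg1, metabolic enzymes of astrocytes, differed by 0.28 ± 0.09 and 0.26 ± 0.09.

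Microglia markers had 6 of 20 members higher and 14 lower, with a median of -0.08 that changed sign without GFP replicate 3 (0.02) or GCas9 replicate 1 (0.05), and was -0.25 and -0.24 without GFP replicate 4 and GCas9 replicate 2. It was -0.02 without GFP replicate 1 and -0.13 without GFP replicate 2. Aif1, the microglial protein Iba1, was at 196, 110, 151 and 78.3 in GFP and 85.2, 234, 97.9 and 79.6 in GCas9 libraries (-0.18 ± 0.36). Fcrls, a marker of resident microglia, was at 117, 85.5, 102 and 179 in GFP and 108, 228, 313 and 286 in GCas9 (0.89 ± 0.34, limma adjusted p = 0.74), and Sall1, their identity factor, differed by -0.40 ± 0.18. Among 25 activated microglia and macrophage genes 15 were higher and 10 lower (median 0.03). Apoe, the lipid carrier, was at 20924, 23253, 23689 and 21838 in GFP and 25032, 30491, 25158 and 25251 in GCas9, without overlap (0.24 ± 0.08, limma adjusted p = 0.73). Gpnmb, a glycoprotein of phagocytic microglia, was at 93.7 to 104 in GFP and at 76.0, 304, 171 and 86.8 in GCas9 (0.46 ± 0.35, limma adjusted p = 0.83). Csf1, a growth factor of microglia, differed by -0.59 ± 0.20, and Spp1, osteopontin, by 0.62 ± 0.27.

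Oligodendrocyte markers (9 of 20 higher, median -0.04) and precursor markers (4 of 11, median -0.04) stayed near the median of all genes; Bcas1, of newly myelinating cells, differed by 0.29 ± 0.10 (limma adjusted p = 0.72). Vessel markers were higher in most members: 15 of 18 endothelial (median 0.16, 0.09 without GCas9 replicate 2, 0.10 without GFP replicate 2) and 16 of 18 mural and meningeal fibroblast markers (median 0.25). Vtn, vitronectin of brain pericytes, was at 686, 762, 710 and 724 in GFP and 887, 909, 880 and 956 in GCas9 libraries, without overlap and with the smallest spread of the vessel genes named (0.33 ± 0.06, interval 0.20 to 0.46, limma adjusted p = 0.13, DESeq2 adjusted p = 0.00069). Slco1a4 and Abcb1a, transporters of the blood-brain barrier, differed by 0.26 ± 0.09 and 0.29 ± 0.12, and Dcn, of fibroblasts, by 0.48 ± 0.17. The 5 red cell transcripts, a sign of blood left in the tissue, were all higher, with a median of 0.26 that was 0.005 without GCas9 replicate 2; their summed level was 1338 to 1850 in GFP and 1494 to 3009 in GCas9. The part of blood in the vessel values was not tested.

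Lists of the response to DNA breaks had medians of -0.13 and -0.05, with single members farther from 0. Of 22 p53 targets 6 were higher and 16 lower (median -0.13, -0.05 without GFP replicate 1, -0.07 without GCas9 replicate 1). Cdkn1a, the cell cycle inhibitor p21, was at 288, 183, 190 and 175 in GFP and 140, 214, 122 and 172 in GCas9 libraries (-0.36 ± 0.18, limma adjusted p = 0.77). Bax, which opens mitochondria in apoptosis, was at 252 to 348 and 315 to 380 (0.25 ± 0.11), and Mdm2, the ligase of p53, at 675 to 693 and 606 to 656 (-0.13 ± 0.07, limma adjusted p = 0.79). Of 25 double-strand break repair genes 8 were higher and 17 lower (median -0.05); Polq, of end joining by short homology, was at 25.5 to 35.9 in GFP and 16.2 to 24.9 in GCas9, without overlap (-0.52 ± 0.22, limma adjusted p = 0.74).

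Stress lists were mixed. Unfolded protein response genes had 12 of 25 higher (median -0.01), with Manf, a factor secreted under stress of the endoplasmic reticulum, at 212 to 263 in GFP and 222 to 274 in GCas9 (0.10 ± 0.10), and Trib3, a target of Atf4, at -0.56 ± 0.21. Cytosolic heat shock genes had 15 of 21 higher (median 0.12, 0.02 without GCas9 replicate 4, 0.07 without GFP replicate 1). Ahsa1, an activator of Hsp90, was at 640, 652, 633 and 680 in GFP and 748, 759, 799 and 836 in GCas9 libraries, without overlap (0.27 ± 0.06, limma adjusted p = 0.34), whereas the co-chaperone Bag3 was at 78.7 to 105 and 52.2 to 75.7 (-0.45 ± 0.16, limma adjusted p = 0.73). Histone genes had 12 of 16 higher (median 0.17, 0.09 without GFP replicate 4, 0.11 without GCas9 replicate 4, 0.06 over members with a mean of at least 50). Hist1h1c, a linker histone, was at 210, 225, 273 and 198 in GFP and 293, 316, 394 and 431 in GCas9, without overlap (0.65 ± 0.14, interval 0.34 to 0.96, limma adjusted p = 0.31), and its difference of Cas9 from GFP was 0.66. Lysosome genes (14 of 30 higher), cholesterol synthesis genes (20 of 23) and neuronal injury genes (8 of 15) had medians of -0.02, 0.12 and 0.06, and the second was 0.07 without GCas9 replicate 3 or 4.

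Genes of the respiratory chain and the ribosome were higher by small amounts in nearly all members. Of 58 nuclear oxidative phosphorylation genes 57 were higher, 12 at an unadjusted p under 0.05 where 3.71% of all genes were, with a median of 0.16. Cox4i1, a subunit of cytochrome oxidase, was at 3748, 4062, 3486 and 4117 in GFP and 4096, 4636, 4445 and 5301 in GCas9 libraries (0.26 ± 0.08, limma adjusted p = 0.72), and Ndufs4, of complex I, differed by 0.26 ± 0.08. Of 75 ribosomal protein genes 72 were higher, 6 at an unadjusted p under 0.05, with a median of 0.13; Rpl15 was at 400 to 408 in GFP and 424 to 522 in GCas9 (0.20 ± 0.08, limma adjusted p = 0.74). Proteasome genes had 24 of 31 higher (median 0.05). The mean log2 level of the oxidative phosphorylation list was 10.17, 10.17, 9.99 and 10.26 in GFP and 10.01, 10.40, 10.29 and 10.56 in GCas9, with GCas9 replicate 1 inside the GFP range. Without GCas9 replicate 4 the medians of the oxidative phosphorylation and ribosomal lists were 0.08 and 0.04, and without GCas9 replicate 1 they were 0.27 and 0.25. Without GFP replicate 3 they were 0.10 and 0.08, and the ribosomal median was 0.06 without GCas9 replicate 2. In the Cas9 libraries the medians against GFP were 0.20 and 0.22.

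Short transcripts were more often higher and long ones more often lower. Genes were put in 4 bins of equal size by the length of their longest transcript. In the bin of shortest transcripts (up to 2100 bases), 6.35% were higher and 0.95% lower in GCas9 at an unadjusted p under 0.05; in the bin of longest transcripts (4750 bases or more) 1.99% were higher and 5.51% lower. The median log2 difference went from 0.05 in the shortest bin to -0.05 in the longest. By library, the level of the longest against the shortest bin was offset by 0.032, 0.053, 0.069 and 0.04 in GFP and by 0.071, -0.127, -0.009 and -0.137 in GCas9 libraries, so that GCas9 replicates 2, 3 and 4 lay below the GFP libraries and replicate 1 above them. Replicates 2 and 4, which lay farthest below, were the highest in the oxidative phosphorylation and ribosomal lists. In Cas9 libraries the offset ran from -0.206 to 0.031. The part of transcript length in the small differences of short genes was not tested.

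**Figure D4:**
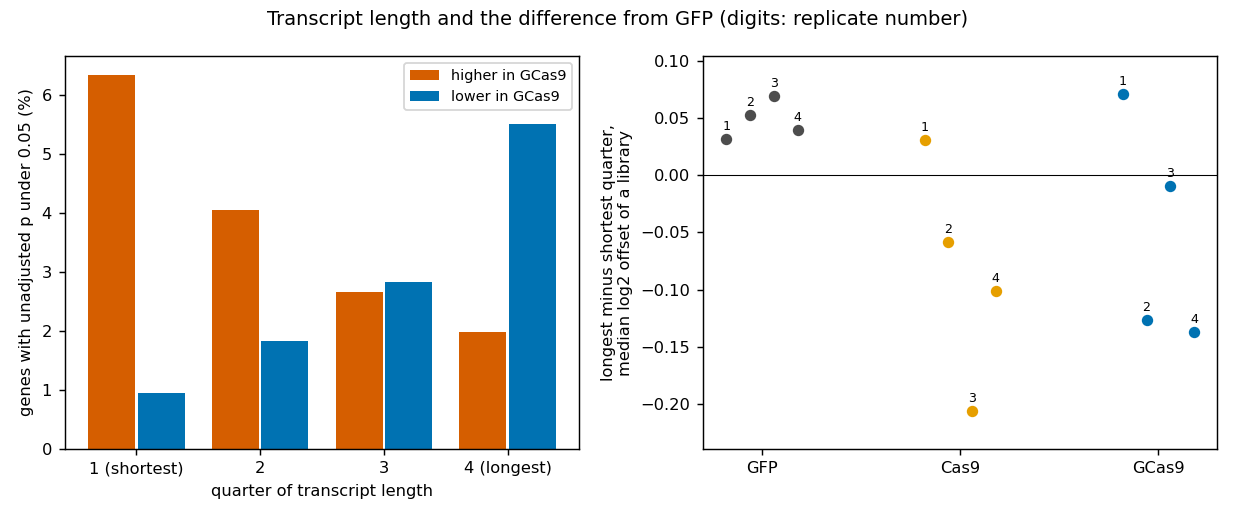
Left, percent of genes (y axis) with an unadjusted limma p under 0.05 in 4 bins of transcript length, higher in GCas9 (orange) and lower (blue); right, the median log2 offset of each library between the longest and the shortest bin, with replicate numbers. The share of higher genes falls from 6.35% to 1.99% and that of lower genes goes from 0.95% to 5.51% from the shortest to the longest bin.

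Across the 44 lists the medians ran from -1.05 for B and plasma cell markers to 0.29 for cortical excitatory neuron markers, with -0.003 over all genes. The lists below -0.5 were those of B cells, chemokines, interferon, class I, S phase and mitosis, class II and T cells, and for each of these the 2 groups overlapped in mean level. The cortical and the mural lists were the ones above 0.2 in which the 4 GCas9 libraries lay above the 4 GFP libraries in mean level, at 6.45 to 6.71 against 6.18 to 6.40 for the mural list. The cortical list includes members, Neurod6 and Nrn1 among them, that passed the filter for testing only through their GCas9 values.

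**Figure D5:**
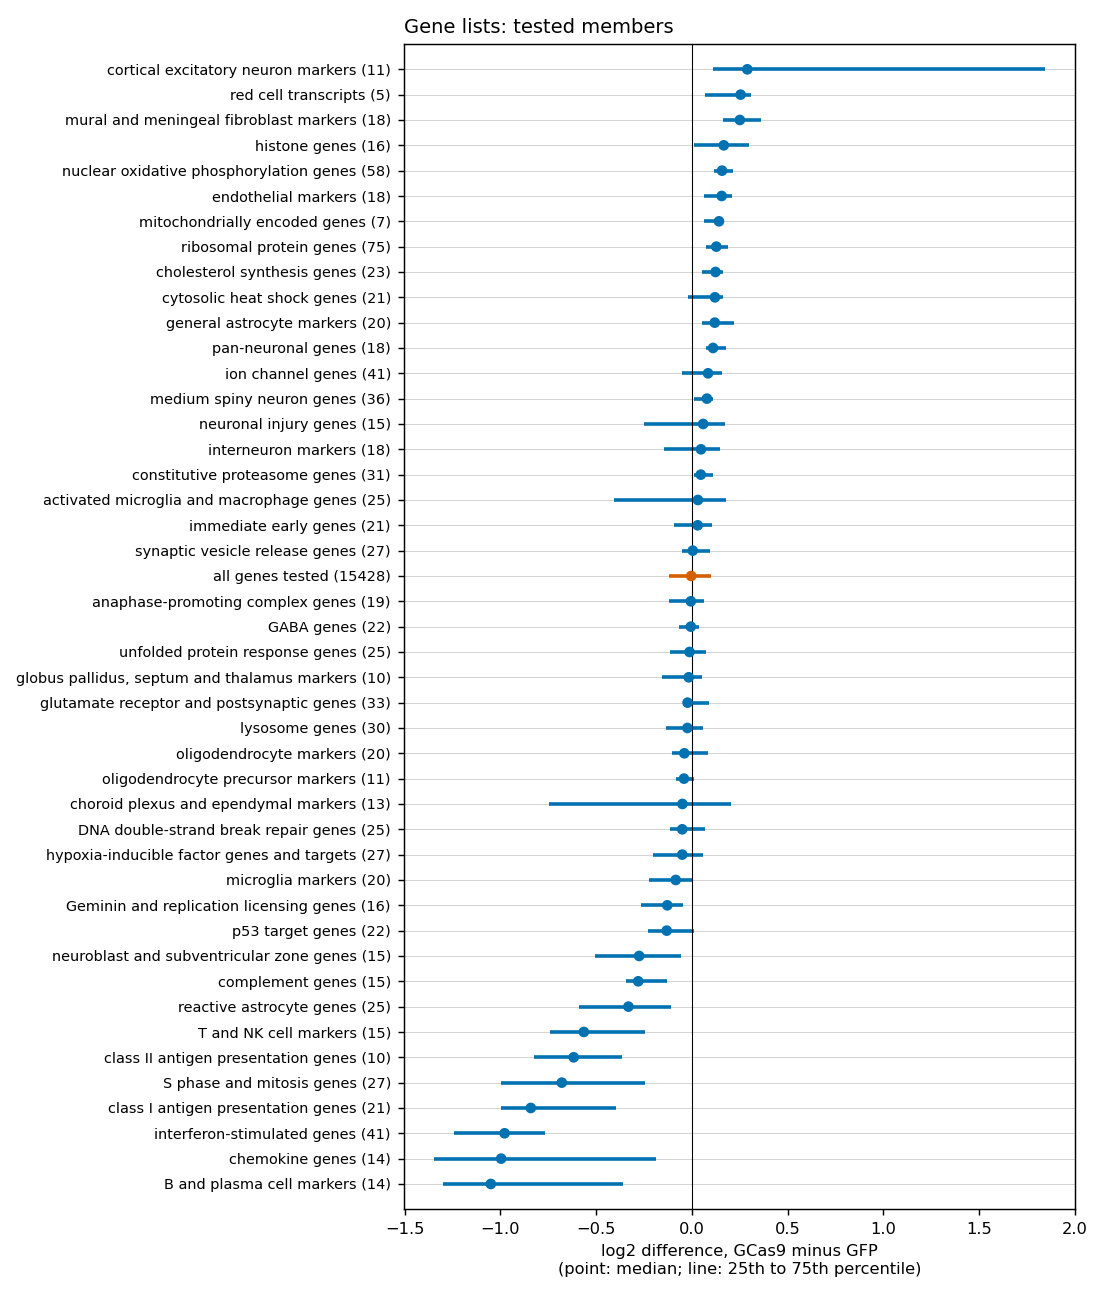
Median (point) and 25th to 75th percentile (line) of the log2 difference, GCas9 minus GFP, over the tested members of each gene list (number in brackets), with all genes tested in orange. Of the immune lists 6 lie to the left with the S phase and mitosis list, from -1.05 to -0.56, while complement genes are at -0.28 and activated microglia and macrophage genes at 0.03, and the cortical list is at the top with a long line to the right.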

How the data were processed

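Striatal RNA of 12 libraries of 1 set (4 GFP, 4 Cas9, 4 GCas9) was used, made from amplified cDNA without molecular identifiers. The authors deposited a table whose values, a depth-scaled signal, are read counts per gene symbol divided by 1 size factor per library, per the file headers (HTSeq counts, DESeq2 normalization). Tools listed without roles are STAR 2.5.2b, R 3.3.3, HTSeq, DESeq2 and SAMtools, with the build GRCm38.p3, per the submitters' processing notes. Whole reads were recovered from the step of each library within 0.001 reads for 100% of values. Of 41128 symbols, 15099 had no read in the set.

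Genes with a mean of at least 10 normalized counts over the 12 libraries (15428) were tested as log2(value + 1) with limma 3.58.1 (R 4.3.3, trended variance, Benjamini-Hochberg adjustment, adjusted p under 0.05). Fold changes are on that scale, which understates changes of low genes, and intervals are 95% intervals from limma. edgeR 4.0.16 and DESeq2 1.42.0 were run on the recovered reads, and list members were counted in Python 3.11.15. The tests were tried on simulated counts of 15329 genes, with 100 genes changed by 1 and 100 by 2 on the log2 scale. limma, edgeR and DESeq2 recovered 90, 92 and 96% of the changes of 1. False calls among unchanged genes were 10 with limma, 12 with edgeR and 33 with DESeq2. Other pseudocounts (0.5, 5), filters (none, 50), quantile normalization, array weights, a replicate block and leaving out each library were tried. Deviations of same-numbered Cas9 and GCas9 libraries from their group means correlated by 0.121 to 0.329, so these were taken as paired from the data, though no label says so, and the contrast was also fitted with the block.

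Genes named are up to 8 per direction by smallest p, among genes averaging 50 or more whose groups did not overlap and leaving out gene models known by a number and pseudogenes, said not to pass, up to 3 members by smallest p of each list described, and a list of always-named genes (Gmnn, Cdt1, Fzr1, Drd1, Drd2 and others). The comparison and the gene lists were chosen with earlier results of these data known. Gene positions and transcript lengths are from GENCODE M21. Lengths were matched for 95.1% of tested genes. Some genes are not reported here.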

Additional observations from a re-analysis of the deposited data

Results flagged for a closer look

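In groups of 4 libraries, a highest or lowest library was set against the others: its gap to the nearest one, as a share of the whole range, was compared with Dixon's 95% critical value for 4 values. This was done for 296 groups of values, of which 27 were past it. Chance gives about 1 in 20 for independent values that follow a normal distribution. Many of the genes checked varied together in the same libraries, so these shares cannot be compared as they stand.

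GCas9 replicate 2 was past the critical value as the highest of its group for 10 of the genes named. These 10 are immune or glial apart from Abcb1a, a vessel gene. The share was 0.979 for Ccl5, 0.960 for Apoe, 0.949 for Igj, 0.926 for B2m, 0.909 for H2-Ab1, 0.901 for Timp1, 0.881 for Aif1, 0.879 for H2-D1, 0.850 for Cxcl9 and 0.842 for Abcb1a, and 0.862 for the mean level of T and NK cell markers. The same library had the fewest gene reads of its group, with a share of 0.880.

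GCas9 replicate 4 was the lowest of its group for Cdc20 (0.925), Car9 (0.904), Mcm7 (0.850) and Dbpht2 (0.8294) and the highest for Uchl1 (0.911). GCas9 replicate 1 was the highest for Efnb2 (0.945).

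GFP replicate 4 was the lowest GFP library for Tgm1 (0.883) and for the mean level of interferon-stimulated genes (0.847). It was the highest for Ppp1r1b (0.885), for the mean level of general astrocyte markers (0.876) and for the share of reads in the 10 most abundant genes (0.839). GFP replicate 3 was the lowest for Ttr (0.871) and for the mean levels of ribosomal protein genes (0.986) and ion channel genes (0.856), and GFP replicate 1 the highest for Cdkn1a (0.868).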

How the results depend on the processing

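Counts of genes past an adjusted p under 0.05 depended on the tool and on single libraries, from a count of 0 with limma and all 12 libraries. The count of genes higher in GCas9 was 37 with DESeq2, 12 with array weights, 7 with the GFP and GCas9 libraries only, and 0 to 9 when 1 library was left out, an alternative that for the Cas9 libraries was chosen after seeing the data. It was 1 without GFP replicate 1 (Gm11973), 1 without GFP replicate 4 (Cul3), 3 without GCas9 replicate 1, 4 without Cas9 replicate 2 and 9 without Cas9 replicate 3. The count of lower genes was 4 with DESeq2 and 0 in every other setting run. Pseudocounts, filters, quantile normalization and edgeR gave 0 in both directions, and GCas9 minus Cas9 gave 0 in each of the settings run for it. With a replicate block the count of higher genes was 5 (Cul3, Egln1, Gm11973, Ranbp9, Khdrbs3); of these Ranbp9 falls outside the naming rule and was named after its values were seen. The deviations of same-numbered GFP and GCas9 libraries correlated by -0.047, -0.13, 0.038 and 0.462, so the numbers were not taken to pair them. For GCas9 minus Cas9, whose numbers were taken to pair, the block changed no call. Over the genes named, 2141 values under alternatives kept their direction and side of the threshold, 57 came past the threshold and 6 changed sign. The 6 were Cdt1 (0.20 without GFP replicate 3 and 0.03 without GCas9 replicate 4), Aif1 (0.03 without GFP replicate 1), Drd1a (-0.02 with quantile normalization and -0.04 without GCas9 replicate 4) and Drd2 (-0.01 without GCas9 replicate 4). With 1 library left out, the differences ran from -0.45 to 0.20 for Cdt1, -0.53 to 0.03 for Aif1, -0.04 to 0.07 for Drd1a and -0.01 to 0.06 for Drd2. The cause was not tested. With 4 libraries a group whose immune lists vary by more than the groups differ, the data limit what can be said of those lists.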

Other observations

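Markers of neighbouring regions other than cortex were near 0 or alike in both groups. Slc17a6, the glutamate transporter of thalamic neurons, was at 0 to 6.4 normalized counts in GFP and 0 to 3.2 in GCas9 libraries, and Tcf7l2, a thalamic transcription factor, was at 68.4 to 95.8 and 69 to 77.3. Over the pallidum, septum and thalamus list 5 of 10 tested members were higher and 5 lower, with a median log2 difference of -0.02. In choroid plexus markers a Cas9 library stood apart: Ttr was at 9771 in Cas9 replicate 1, against at most 334 in any GFP or GCas9 library.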
